A study of Mus musculus with 6 samples.

Results

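Homozygous and heterozygous deletions of the *Wnt6* anchor were compared directly by RNA-seq of mouse embryonic stem cells (mESCs), using the 4 deletion libraries of a series of 6. The genes compared were the 16474 of 55385 listed genes that had at least 10 counts in at least 2 of these 4 libraries. In the heterozygous cells the region around *Wnt6* was deleted on 1 allele, and in the homozygous cells on both. Both lines came from wild-type G4 mESCs, an F1 hybrid of 129/Sv and C57BL/6, by transfection of a pair of Cas9 guides followed by screening of individual clones, and both were grown with leukemia inhibitory factor on a layer of CD1 feeder cells. Each genotype had 2 labeled replicates. The labels do not say how many clones stand behind a genotype or whether replicates were separate cultures, so a difference between genotypes cannot be told apart from a difference between clones, and p-values measure only the spread between these libraries, which may be technical. The study's methods state 3 biological replicates, and the 2 labeled ones were used.

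The deleted region is an anchor of a long-range loop between stretches of chromatin marked by H3K27me3, the histone modification that Polycomb repressive complex 2 deposits at silenced developmental genes. In mESCs such genes, among them *Wnt6* and its loop partner *Pax3*, are held at very low expression, while the pluripotency factors *Pou5f1*, *Sox2* and *Nanog* are highly expressed. A comparison of the homozygous with the heterozygous deletion asks which transcripts differ when the remaining copy of the anchor is also removed, between lines that both went through editing and cloning.

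The labels were first checked against markers and against the deleted genes. *Pou5f1* was at 931 and 876 CPM (the share of a library's reads, after TMM scaling for library composition) in the heterozygous and at 1064 and 975 in the homozygous libraries, so all 4 libraries carried the stem cell marker. The deposited counts summed to between 23813912 and 26545499 per deletion library, at which 3 counts correspond to 0.113 to 0.131 CPM. *Wnt6* (GRCm38 chromosome 1, 74771892 to 74785322, plus strand), which encodes a secreted Wnt ligand, had 6 and 4 counts in heterozygous and 0 and 0 in homozygous libraries, against 11 and 13 in wild-type libraries. It was at least 3.17-fold lower in the homozygous cells, taking 3 counts over the genotype as the limit (edgeR adjusted p = 0.00742 with no count minimum, under which *Wnt6* lies). *Cdk5r2* (chromosome 1, 74854934 to 74857732, plus strand), which encodes an activator of the neuronal kinase Cdk5, had 16 and 17 counts in heterozygous and 1 and 2 in homozygous libraries. The ratio was 10.5, with an exact 95% counting interval from 3.28 to 53.3 (edgeR adjusted p = 0.000489). The counts of both genes fell in the order of the labeled genotypes, without overlap between heterozygous and homozygous libraries. *Wnt10a* had 2 and 1 counts in heterozygous and 1 and 0 in homozygous libraries, and *Fev* and *Cryba2* had 0 in all 4. The loop partner *Pax3* (chromosome 1, 78101267 to 78197134, minus strand), a transcription factor of the neural crest and muscle lineages, was counted 11 and 5 times in heterozygous and 4 and 4 times in homozygous libraries (log2 fold change -0.91, standard error 0.669, edgeR adjusted p = 0.509 over all genes with any count). No difference in *Pax3* was detectable at this depth.

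The promoters of the deleted genes are shown because both genes belong to the region that was deleted on both alleles in the homozygous cells; its exact ends were not used here. Each runs from 250 bases before to 50 bases after the RefSeq start of the gene (GRCm38.p6, 5′ to 3′, plus strand, chr1:74771642-74771941 for *Wnt6* and chr1:74854779-74855078 for *Cdk5r2*), with each CG dinucleotide in capitals.
Wnt6 promoter: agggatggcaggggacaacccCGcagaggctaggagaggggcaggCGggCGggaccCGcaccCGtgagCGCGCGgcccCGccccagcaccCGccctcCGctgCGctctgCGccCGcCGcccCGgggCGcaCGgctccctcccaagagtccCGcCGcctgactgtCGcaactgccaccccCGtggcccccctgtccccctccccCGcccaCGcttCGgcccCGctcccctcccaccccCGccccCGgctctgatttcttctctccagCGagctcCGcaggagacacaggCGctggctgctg
Cdk5r2 promoter: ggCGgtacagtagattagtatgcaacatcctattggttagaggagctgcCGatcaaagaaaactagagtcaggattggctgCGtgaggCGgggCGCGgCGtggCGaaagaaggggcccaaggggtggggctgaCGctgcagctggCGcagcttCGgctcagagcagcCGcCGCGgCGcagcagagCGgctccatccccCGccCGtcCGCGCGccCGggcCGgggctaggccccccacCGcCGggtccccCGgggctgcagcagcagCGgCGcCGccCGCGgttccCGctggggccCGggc
The *Wnt6* window holds 31 CG dinucleotides and the *Cdk5r2* window 33, against a median of 7 over the 32851 promoter windows of the same length in that RefSeq table. Windows with at least as many made up 10.6% and 8.56% of them. Such CG-dense stretches are the usual landing sites of Polycomb complexes in mESCs.

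Across the 16474 genes, a median log2 fold change of -0.02 (homozygous minus heterozygous) and a common biological coefficient of variation of 3.52% were estimated. A gene past both thresholds had to change by more than 1 on the log2 scale in either direction, at an adjusted p (edgeR's quasi-likelihood test, Benjamini-Hochberg) under 0.05. By that rule 86 genes were higher (0.522% of those tested) and 141 lower (0.856%) in the homozygous cells. With the adjusted p alone, 2166 genes were higher (13.1%) and 2180 lower (13.2%), most of them by little: their median absolute log2 fold change was 0.35. In what follows, "rose" and "fell" describe genes at an adjusted p below 0.05 in the homozygous relative to the heterozygous libraries. The larger changes rested on fewer reads, since 113 of the 227 genes past both thresholds averaged under 30 counts in the genotype with more. The libraries of the deletion genotypes did not overlap in any of these 227 genes, nor in 61.9% of all genes tested.

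These counts depended on the method and on single libraries. DESeq2 on all 6 libraries called 46 higher and 55 lower past both thresholds, and on the 4 deletion libraries alone 37 and 47, of which 81 were also called by edgeR. Without homozygous replicate 2 the number of lower genes became 300, and without heterozygous replicate 1 the genes lower by adjusted p alone numbered 1402. With library totals in place of TMM factors, higher genes made up 25.2% in place of 37.9% of the calls past both thresholds, and 29.4% in place of 49.8% of those by adjusted p, while the median of all genes moved by -0.07.

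The highest fold change of the comparison belonged to an imprinted gene, *Nap1l5*, a nucleosome assembly protein family member transcribed from the paternal copy. *Nap1l5* (chromosome 6, 58905233 to 58907076, minus strand) showed 0 and 1 counts in heterozygous libraries, 28 and 35 in homozygous ones and 28 and 24 in wild-type ones. Homozygous and heterozygous libraries were far apart, while homozygous and wild-type libraries held similar counts. The ratio was 66.2, with an exact 95% counting interval from 11.5 to 2658 (edgeR adjusted p = 2.09e-06). *Peg13* (chromosome 15, 72805600 to 72810324, minus strand), a paternally expressed noncoding RNA, was at 1.73 and 1.32 CPM in heterozygous and at 7.11 and 7.95 in homozygous libraries (log2 fold change 2.31, standard error 0.165, edgeR adjusted p = 5.36e-09). Its wild-type libraries were at 6.82 and 6.59 CPM, so here too the heterozygous libraries were the ones that stood apart.

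**Figure D1:**
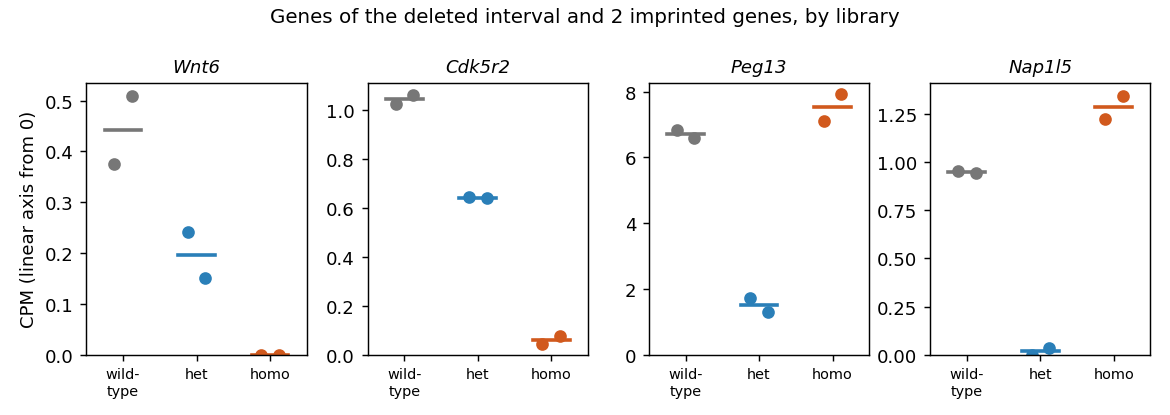
CPM on linear axes from 0 for *Wnt6*, *Cdk5r2*, *Peg13* and *Nap1l5* in the 2 libraries of each genotype (points) with their mean (line). *Wnt6* and *Cdk5r2* step down from wild-type to homozygous cells, whereas *Peg13* and *Nap1l5* are low only in the heterozygous libraries, at 1.73 and 1.32 CPM and at 0 and 1 counts.

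Both genes lie inside the span of a longer host gene, and the hosts moved little. *Trappc9*, around *Peg13*, rose (log2 fold change 0.30, edgeR adjusted p = 0.00812), and *Herc3*, around *Nap1l5*, fell (log2 fold change -0.27, edgeR adjusted p = 0.00497). *Peg13* and *Trappc9* are annotated on the same strand, so reads from the shared stretch cannot be assigned to either from the counts. The promoter of *Nap1l5* is shown with the hexamer TGCCGC, which the imprint-protecting zinc finger protein ZFP57 binds when it is methylated. The window is chr6:58907077-58907376 (GRCm38.p6, RefSeq, minus strand, 5′ to 3′), with TGCCGC in capitals.
Nap1l5 promoter: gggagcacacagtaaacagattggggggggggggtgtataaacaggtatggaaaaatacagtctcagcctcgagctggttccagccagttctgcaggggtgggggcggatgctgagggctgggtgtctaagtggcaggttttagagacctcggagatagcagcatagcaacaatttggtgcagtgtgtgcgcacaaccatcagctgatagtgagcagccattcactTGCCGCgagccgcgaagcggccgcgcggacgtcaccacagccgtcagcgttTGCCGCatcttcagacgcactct
It holds 2 matches counted over both strands, and 11.6% of all promoter windows hold at least 1. It also holds 17 CG dinucleotides, and 31.4% of windows hold as many or more. No promoter entry was found for *Peg13*.

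As lists, the imprinted genes were divided. Of 32 tested paternally expressed genes, *Nap1l5* and *Peg13* included, 7 rose and 10 fell by adjusted p. Past both thresholds 2 rose, which were *Nap1l5* and *Peg13* themselves, and 1 fell. The median log2 fold change of the list was -0.09. Of 25 tested maternally expressed genes, 10 rose and 8 fell, none past both thresholds, with a median of -0.00, or 7 and 8 with a median of -0.07 with library totals. Without heterozygous replicate 1, 6 of the paternally expressed genes fell. *Grb10*, a growth-restraining adaptor protein, was at 413 and 417 CPM in heterozygous and 688 and 662 in homozygous libraries (log2 fold change 0.70, standard error 0.04, edgeR adjusted p = 5.21e-10). *H19*, a maternally expressed noncoding RNA, was at 57.5 and 54.2 CPM against 88.9 and 83.0 (log2 fold change 0.62, standard error 0.054, edgeR adjusted p = 6.44e-08). Neither gene's deletion genotypes overlapped, as in 61.9% of all genes tested. *Meg3*, the maternal noncoding RNA of the Dlk1-Dio3 cluster, was at 500 and 460 CPM in heterozygous and at 233 and 380 in homozygous libraries (log2 fold change -0.65, standard error 0.132, edgeR adjusted p = 0.00122). Homozygous replicate 1 was the lowest of these, and without it the log2 fold change was -0.34, against -1.04 without replicate 2. *Mirg*, from the same cluster, fell as well (log2 fold change -0.64, standard error 0.08, edgeR adjusted p = 7.27e-06). *Airn*, the paternal noncoding RNA of the *Igf2r* locus, had 35 and 39 counts against 16 and 19 and passed the fold threshold barely (edgeR adjusted p = 0.0159), a call lost in 10 of the 18 alternatives. *Zfp57* itself did not pass the test (log2 fold change 0.02), nor did the maintenance factor *Uhrf1* (0.06). In the list of 22 genes of DNA methylation and imprint maintenance, 8 rose and 1 fell by adjusted p, with a median of 0.10, and the number that rose was 3 without homozygous replicate 1, 5 without heterozygous replicate 1 and 4 without heterozygous replicate 2. With library totals 3 rose and 2 fell. *Hells*, *Tet1* and *Tet2* rose by log2 fold changes of 0.31, 0.30 and 0.38.

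The broadest difference lay on chromosome 8. Of its 866 tested genes, 583 rose (67.3%) and 9 fell (1.04%) by adjusted p, and 23 rose and 2 fell past both thresholds. The median log2 fold change was 0.51, a 1.42-fold higher level, where the medians of the other autosomes and the X chromosome ran from -0.05 to -0.01. On those 19 chromosomes between 9.07% and 12.5% of the genes rose and between 11.6% and 17.5% fell. Chromosome 8 holds 5.26% of the tested genes and contributed 26.7% of the genes that rose past both thresholds. Off chromosome 8, 63 genes were higher (0.404%) and 139 lower (0.891%) past both thresholds, and 1583 were higher (10.1%) and 2171 lower (13.9%) by adjusted p.

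**Figure D2:**
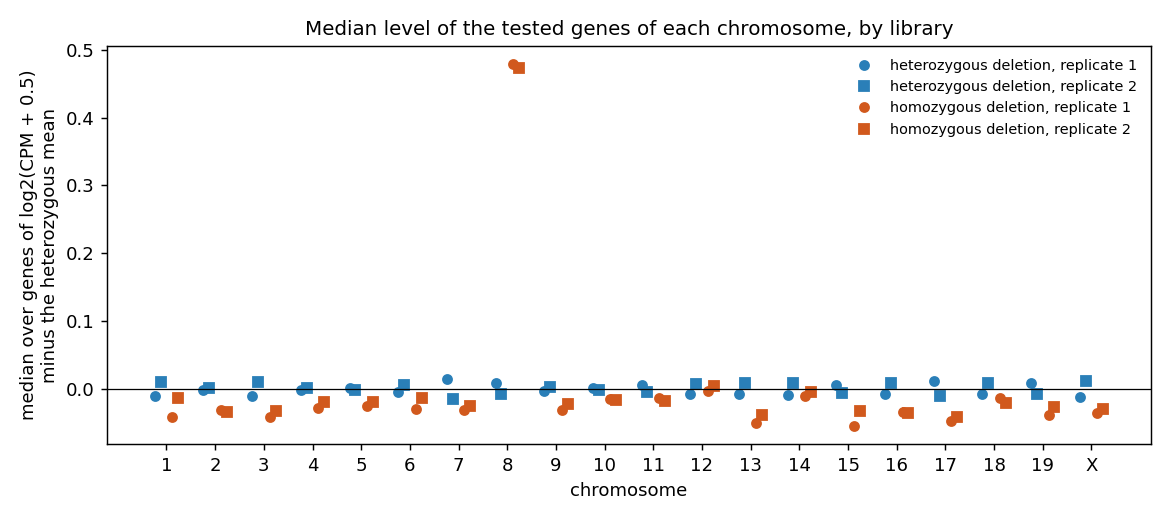
For each chromosome, the median over its tested genes of log2(CPM + 0.5) minus the mean of the heterozygous libraries, for each deletion library (points; circles replicate 1, squares replicate 2). On chromosome 8 the homozygous libraries are at 0.48 and 0.47, and on every other chromosome drawn all 4 libraries lie between -0.055 and 0.015.

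The shift was present in both homozygous libraries and along the whole chromosome. On the log2(CPM + 0.5) scale the median over chromosome 8 genes, relative to the heterozygous mean, was 0.48 and 0.47 in the homozygous libraries and 0.01 and -0.01 in the heterozygous ones. Against the wild-type mean, for genes of at least 1 CPM on average, the heterozygous libraries were at -0.12 and -0.13 and the homozygous ones at 0.39 and 0.38, so the genotypes lay on opposite sides of wild-type. Over 13 stretches of 10 Mb the median log2 fold change ran from 0.47 to 0.60. With the genes split by mean CPM into low, middle and high sets of 288 to 289, it was 0.37, 0.45 and 0.59. With any of the scalings and any library left out the chromosome 8 median stayed between 0.45 and 0.53.

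Many genes that lead other lists sit on chromosome 8 and moved with it. *Ctcf*, which encodes the insulator protein that bounds topological domains, was at 204 and 203 CPM in heterozygous and 288 and 286 in homozygous libraries (log2 fold change 0.50, standard error 0.041, edgeR adjusted p = 3.15e-08). *Cdh1*, encoding E-cadherin, was at 872 and 905 CPM against 1268 and 1264 (log2 fold change 0.51, standard error 0.038, edgeR adjusted p = 1.02e-08). Both changes are about the median of the chromosome. *Zfp42* (Rex1), a marker of naive pluripotency, rose by a log2 fold change of 0.53, the neuronal tubulin *Tubb3* by 0.66, the replication helicase subunit *Mcm5* by 0.72, and the metallothioneins *Mt1* and *Mt2* by 0.34 and 0.43. All of these lay within the range from -0.23 to 0.90 that covers the central 90% of chromosome 8 genes.

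A smaller set of chromosome 8 genes rose well beyond the chromosome's median. *Sox1*, a neural progenitor transcription factor, was at 1.93 and 1.65 CPM in heterozygous and at 7.33 and 6.76 in homozygous libraries (log2 fold change 1.97, standard error 0.162, edgeR adjusted p = 3.2e-08). *Zmat4*, a zinc finger gene, was at 5.59 and 5.07 CPM against 19.2 and 19.7 (log2 fold change 1.87, standard error 0.099, edgeR adjusted p = 2.92e-10). *Tenm3*, a teneurin that guides neuronal wiring as a cell surface receptor, was at 29.6 and 28.9 CPM against 68.9 and 64.4 (log2 fold change 1.19, standard error 0.059, edgeR adjusted p = 2.06e-10). In each case both homozygous libraries lay above both heterozygous and both wild-type libraries. *Pou4f2*, a transcription factor of retinal ganglion cells, was at 1.37 and 1.32 CPM against 3.88 and 4.07 (log2 fold change 1.57, edgeR adjusted p = 5.16e-06). *Zfp791* and *Adgrg1*, an adhesion G protein-coupled receptor, rose by 1.14 and 1.13, and *Hsdl1* went from 15.9 and 16.5 CPM to 32.9 and 32.1. Without heterozygous replicate 1 *Adgrg1* and *Hsdl1* dropped under the fold threshold, to 0.97 and 0.98, and *Hsdl1* also without homozygous replicate 1.

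The 9 chromosome 8 genes that fell went against the rest. Among them *Cdh11*, a mesenchymal cadherin, was at 22.2 and 23.8 CPM in heterozygous and 13.7 and 14.6 in homozygous libraries (log2 fold change -0.70, standard error 0.085, edgeR adjusted p = 5.12e-06). The following 3 were named after their values were seen. *Nrp1*, a co-receptor of semaphorins and VEGF, fell by 0.66 on the log2 scale. *Rnf150* and *Bean1* were the 2 past both thresholds, *Rnf150* with 50 and 85 counts against 23 and 32 and *Bean1* with 36 and 36 against 18 and 16. *Rnf150* lost that call without heterozygous replicate 2, and *Bean1* in 10 of the 18 alternatives, among them DESeq2.

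The highest and lowest fold changes past both thresholds were examined among the 114 called genes with at least 30 counts on average in the higher genotype. Of the 10 highest, 7 were on chromosome 8, and the remaining ones were *Nap1l5*, *Peg13* and *Hes3*. *Hes3*, a transcriptional repressor of the Notch-associated Hes family, had 13 and 13 counts in heterozygous and 42 and 30 in homozygous libraries (log2 fold change 1.54, standard error 0.342, edgeR adjusted p = 0.00251). Of the 10 lowest, 0 were on chromosome 8 and 2 were predicted genes. *Pla2g1b*, a secreted phospholipase A2, was at 66.3 and 64.8 CPM in heterozygous and 22.8 and 19.9 in homozygous libraries (log2 fold change -1.62, standard error 0.066, edgeR adjusted p = 3.22e-11). Its wild-type libraries, at 59.5 and 62.1 CPM, were close to the heterozygous ones. *Slc15a2*, a peptide transporter, was at 6.15 and 6.05 CPM against 1.13 and 1.77 (log2 fold change -2.05, standard error 0.202, edgeR adjusted p = 3.43e-07). The selection required that the deletion genotypes did not overlap.

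**Figure D3:**
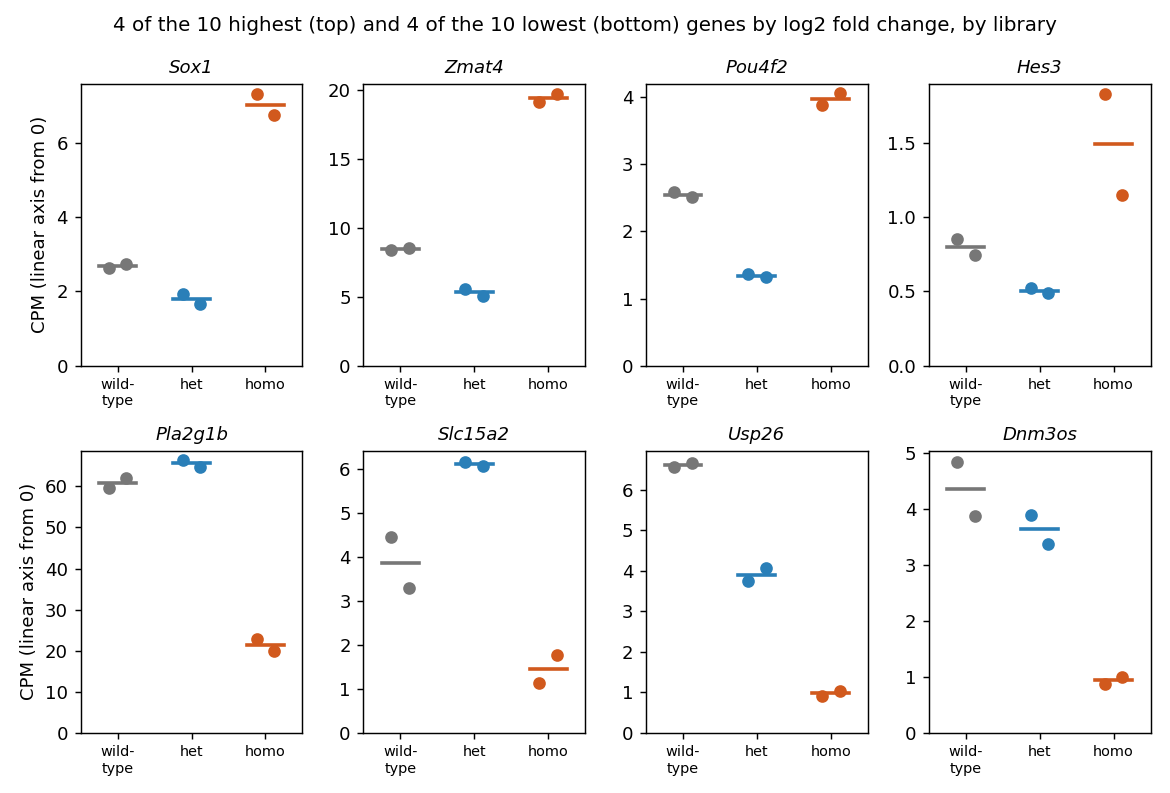
CPM on linear axes from 0 in the 2 libraries of each genotype (points) with their mean (line), for *Sox1*, *Zmat4*, *Pou4f2* and *Hes3*, which were higher in homozygous cells, and for *Pla2g1b*, *Slc15a2*, *Usp26* and *Dnm3os*, which were lower. In *Usp26* the heterozygous libraries, at 3.74 and 4.06 CPM, lie between the wild-type and the homozygous ones.

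Noncoding and X-linked transcripts were among the lowest. *Dnm3os*, the host transcript of miR-199a and miR-214, was at 3.90 and 3.38 CPM against 0.873 and 0.998 (log2 fold change -1.95, standard error 0.227, edgeR adjusted p = 3e-06). *Mir100hg*, the host of miR-100, let-7 and miR-125b family members, was at 16.8 and 16.6 CPM against 3.58 and 7.10 (log2 fold change -1.62, standard error 0.185, edgeR adjusted p = 2.41e-06). Homozygous replicates differed here, and the log2 fold change was -1.23 without replicate 1 and -2.22 without replicate 2. *Dnm3os* lies antisense inside *Dnm3*, and without the strand setting of the counting their reads cannot be told apart. *Usp26*, an X-linked deubiquitinase, was at 3.74 and 4.06 CPM against 0.916 and 1.04 (log2 fold change -1.99, standard error 0.202, edgeR adjusted p = 5.25e-07). *Pnma5*, also X-linked, was at 3.42 and 3.95 CPM against 1.09 and 1.31, the rootletin-family gene *Crocc2* at 3.70 and 3.64 against 0.960 and 1.34. The manganese exporter *Slc30a10* had 50 and 40 counts against 9 and 19. On the X chromosome 11 of 588 tested genes fell (1.87%, beside 0.856% of all genes) and 2 rose past both thresholds. The share that fell was similar on chromosomes 14 (1.76%) and 13 (1.58%).

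Fibroblast genes fell together in the homozygous cells. Of 48 tested fibroblast markers, 38 fell and 1 rose by adjusted p, 1 (*Twist2*) fell past both thresholds, and the median log2 fold change was -0.55, beside -0.02 over all genes. *Col1a1*, the main chain of type I collagen, was at 297 and 263 CPM in heterozygous and 173 and 171 in homozygous libraries (log2 fold change -0.70, standard error 0.052, edgeR adjusted p = 8.14e-09). *Lox*, which crosslinks collagen, was at 168 and 172 CPM against 97.9 and 95.5 (log2 fold change -0.82, standard error 0.044, edgeR adjusted p = 3.81e-10). The surface marker *Thy1* was at 15.6 and 15.9 CPM against 9.08 and 8.98 (log2 fold change -0.80, edgeR adjusted p = 2.8e-06). Homozygous and heterozygous libraries did not overlap in any of the 3 genes, nor in 61.9% of all genes tested. *Postn* did not pass the test (log2 fold change -0.71, edgeR adjusted p = 0.0719), and *Twist2*, from 30 and 26 against 9 and 13 counts, no longer passed both thresholds with DESeq2, without heterozygous replicate 1 or without homozygous replicate 1.

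Summed over the fibroblast list, the heterozygous libraries held 5664 and 5642 CPM and the homozygous ones 4158 and 4119, below the 7303 and 7264 CPM of wild-type libraries. Each of the markers that define the list had counts in all libraries. The cultures contained feeder cells, and in bulk RNA fewer cells of a type and less RNA per cell cannot be told apart. Whether the share of feeder cells differed, and its part in the results of the other lists, was not tested.

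Lists of contractile, matrix-responsive and mesenchymal genes moved in the same direction. All 18 tested YAP and TGF-beta responsive genes fell by adjusted p, 0 of them past both thresholds, with a median of -0.52. *Ltbp2*, a matrix protein, was at 55.3 and 55.8 CPM in heterozygous and 29.2 and 29.6 in homozygous libraries (log2 fold change -0.92, standard error 0.057, edgeR adjusted p = 1.01e-09). The YAP targets *Ccn1* and *Ccn2* fell by 0.47 and 0.37 on the log2 scale. Among 17 smooth muscle contractile genes 10 fell and 1 rose (median -0.40), with *Acta2* at 180 and 175 CPM against 116 and 111. Among 7 caveolar genes 5 fell (median -0.39), a count of 3 without homozygous replicate 2, and *Cav1* fell by 0.62 on the log2 scale. Among 14 mesenchymal adhesion genes 9 fell (median -0.40), *Vim* by 0.55, *Zeb1* by 0.60 and *Cdh2* by 0.24 on the log2 scale, and 4 of these genes are also in the fibroblast list. Of the 17 epithelial adhesion genes 3 rose and 2 fell (17.6% and 11.8%, near the 13.1% and 13.2% of all genes). With library totals 2 rose and 4 fell. *Cdh1* and *Cdh3* on chromosome 8 were among the 3 that rose.

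**Figure D4:**
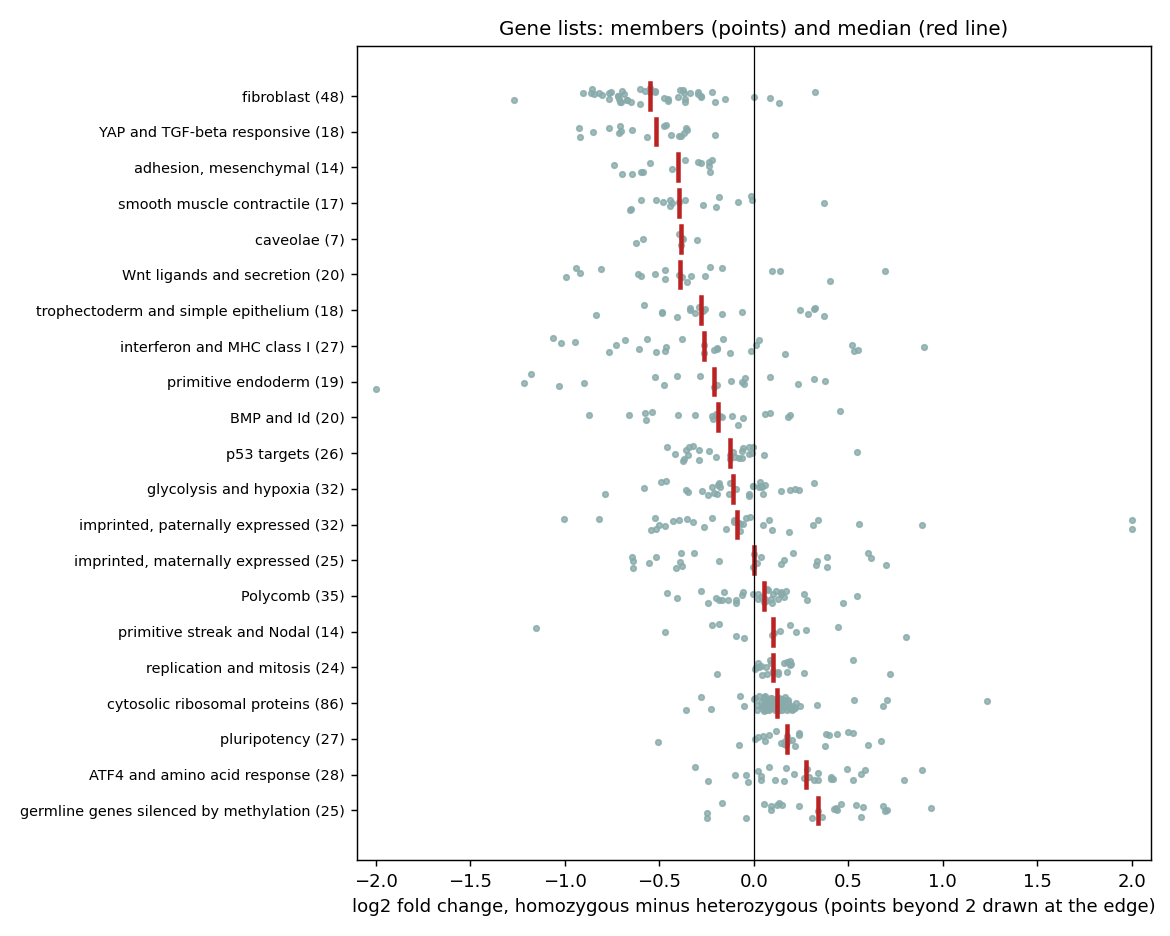
Log2 fold changes, homozygous minus heterozygous, of the tested members of 21 gene lists (points; those beyond 2 drawn at the edge) with the median of each list (red line); the number tested stands beside each name. Below 0 lie 44 of 48 fibroblast genes and all 18 YAP and TGF-beta responsive genes, whereas the ribosomal protein and pluripotency lists have medians of 0.12 and 0.18.

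Other cell type markers were sparse or mixed. In the macrophage list 5 of 14 genes were tested and 2 fell, *Cd68* and *Laptm5*, while the defining markers *Tyrobp* and *Lyz2* had 0 counts in both homozygous libraries and at most 1 in a heterozygous library. In the endothelial list 3 of 9 tested genes fell and 2 rose. *Flt1* fell by 0.91 on the log2 scale and *Kdr* by 0.76, whereas *Pecam1*, which mESCs also express, rose by a log2 fold change of 0.47. Interferon and MHC class I genes, which fibroblasts express more strongly than mESCs, had 14 of 27 tested members fall and 3 rise, with a median of -0.26. Of the 24 off chromosome 8, 14 fell and 1 rose, with a median of -0.32. *B2m* was at 36.3 and 39.0 CPM against 28.2 and 26.3 (log2 fold change -0.47, standard error 0.073, edgeR adjusted p = 8.69e-05). *Psmb8* and *Tap2*, of the immunoproteasome and peptide transport, were the 2 past both thresholds. Each lost that call without heterozygous replicate 1, *Psmb8* also without homozygous replicate 2 and with DESeq2 on 4 libraries, and *Tap2* without homozygous replicate 1. Of 18 chemokine and cytokine genes 7 fell and 2 rose, with 0 that rose without heterozygous replicate 1. These were 38.9% and 11.1% of the list, beside 13.2% and 13.1% of all genes. Among those that fell was *Csf1*, the macrophage growth factor, at 130 and 129 CPM against 76.4 and 78.3 (log2 fold change -0.74, standard error 0.045, edgeR adjusted p = 9.19e-10), and *Cxcl12*, which fell by 0.97 on the log2 scale. The only member past both thresholds, *Ccl28*, rose (log2 fold change 2.195, edgeR adjusted p = 0.00816).

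The Y-linked genes, low in both deletion genotypes, were lower still in homozygous cells. *Uty* had 18 and 17 counts in heterozygous and 7 and 8 in homozygous libraries, against 357 and 314 in wild-type libraries, and *Ddx3y* had 67 and 66 against 35 and 37. Of 4 tested Y-linked genes 3 fell by adjusted p, with a median of -0.80, and 1 without homozygous replicate 2 or heterozygous replicate 2. *Uty* alone was past both thresholds, a call that each single library left out removed. Of the X-linked relatives of these genes, 5 of 7 rose by adjusted p, by a median of 0.16, and 3 with library totals or without homozygous replicate 1, and 1 without heterozygous replicate 1. *Xist*, the RNA of X inactivation, had 249 and 270 counts in heterozygous and 152 and 137 in homozygous libraries (log2 fold change -0.77, standard error 0.135, edgeR adjusted p = 0.000307). In *Uty*, *Ddx3y* and *Xist* the libraries of the deletion genotypes did not overlap, as in 61.9% of all genes tested. Summed over the Y-linked list, wild-type libraries held 34.3 and 33.1 CPM, heterozygous ones 6.07 and 6.91 and homozygous ones 4.23 and 3.68. The summed fibroblast markers given above were also lowest in the homozygous libraries. Whether these differences are linked was not tested.

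**Figure D5:**
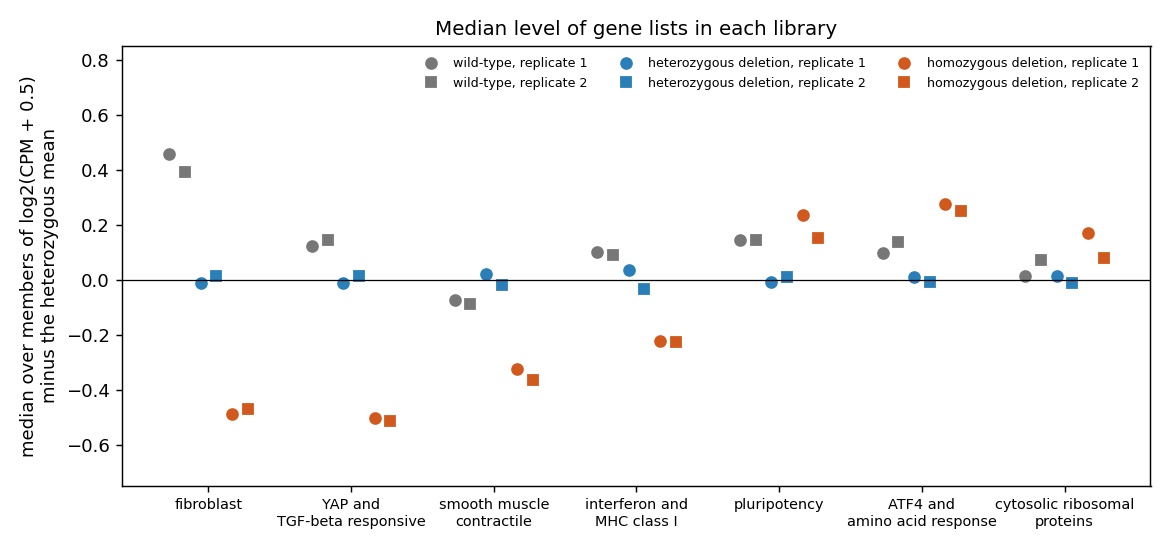
For 7 gene lists, the median over tested members of log2(CPM + 0.5) minus the mean of the heterozygous libraries, for each of the 6 libraries (points). The fibroblast list is at 0.46 and 0.39 in wild-type and at -0.49 and -0.47 in homozygous libraries, and the pluripotency list is at 0.24 and 0.15 in homozygous libraries.

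Pluripotency genes were slightly higher in homozygous cells. Of 27 tested, 17 rose and 1 fell by adjusted p, 0 past both thresholds, with a median log2 fold change of 0.18. With library totals 13 rose and 2 fell, with a median of 0.11. *Nanog* was at 79.3 and 82.2 CPM in heterozygous and 96.1 and 94.9 in homozygous libraries (log2 fold change 0.24, standard error 0.047, edgeR adjusted p = 0.000847). *Esrrb*, a nuclear receptor of the naive network, was at 95.8 and 97.0 CPM against 127 and 126 (log2 fold change 0.40, standard error 0.045, edgeR adjusted p = 2.15e-06), and *Nr0b1* rose by 0.61. *Pou5f1* and *Sox2* rose by 0.18 and 0.14, and *Klf4* did not pass the test (0.06). The wild-type libraries, at 89.2 and 92.2 CPM for *Nanog* and 124 and 128 for *Esrrb*, were closer to the homozygous ones.

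Genes of the first lineages differed in both directions. Of 18 tested trophectoderm and simple epithelium genes 7 fell and 3 rose by adjusted p, with a median of -0.28, and 1 rose with library totals, without homozygous replicate 1 or without heterozygous replicate 2. *Krt18* and *Krt8*, keratins of simple epithelium, were at 396 and 396 and at 489 and 458 CPM in heterozygous libraries, and at 291 and 275 and at 392 and 356 in homozygous libraries (log2 fold changes -0.48 and -0.34, edgeR adjusted p = 8.29e-08 and 3.18e-05). The 3 members that rose were the keratins *Krt19* and *Krt17* and the factor *Elf3*, by log2 fold changes of 0.32, 0.33 and 0.24. The trophectoderm factors *Cdx2* and *Eomes* did not pass the test. Relative to the heterozygous mean, the list's median log2(CPM + 0.5) was -0.25 and -0.24 in wild-type libraries. It was -0.21 and -0.31 in homozygous libraries, so the heterozygous libraries stood apart from both other genotypes. Of 19 tested primitive endoderm genes 7 fell and 2 rose by adjusted p, and 4 fell past both thresholds, with a median of -0.21. *Rhox5*, an X-linked homeobox gene, was at 43.4 and 43.0 CPM against 18.7 and 19.5 (log2 fold change -1.18, standard error 0.067, edgeR adjusted p = 5.13e-10). *Cubn*, an endocytic receptor of visceral endoderm, was at 4.54 and 4.58 CPM against 2.18 and 1.77, with wild-type libraries at 2.01 and 1.73. *Srgn*, a proteoglycan core protein, had 13 and 22 counts in heterozygous and 2 and 2 in homozygous libraries, and 2 and 1 in wild-type. For *Cubn* and *Srgn* it was thus the heterozygous libraries that stood apart from the other 4. *Gata6* had 27 and 42 counts against 14 and 18 (log2 fold change -1.03) and lost the call with DESeq2, without heterozygous replicate 2 and without homozygous replicate 1, and *Gata4* and *Sox7* did not pass the test.

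In the primitive streak and Nodal list 6 of 14 genes rose and 4 fell, or 3 and 1 without heterozygous replicate 2. *T* (Brachyury), which marks the streak and responds to Wnt, was at 4.50 and 5.30 CPM against 2.23 and 2.19 (log2 fold change -1.15, standard error 0.17, edgeR adjusted p = 4.97e-05), while *Fgf17* rose by 0.80. *Nodal* fell by 0.18 on the log2 scale. Of the formative and primed genes 6 of 19 rose and 3 fell, *Pou3f1* (Oct6) by 0.52 on the log2 scale, and *Fgf5* did not pass the test. Without heterozygous replicate 1, 1 of these genes rose and 1 fell, and with library totals 2 rose and 6 fell and the median turned from 0.04 to -0.02. In the neural list 8 of 22 genes rose and 1 fell, or 7 and 4 with library totals. The median was -0.03, or -0.02 without heterozygous replicate 2, and 13 of the 22 lay below 0. Of the 20 off chromosome 8, 6 rose and 1 fell. The neurofilament gene *Nefm* (chromosome 14) was at 8.28 and 8.04 CPM against 19.6 and 18.5 (2.33-fold higher, edgeR adjusted p = 9.18e-09), whereas its relatives *Nefl* and *Nefh* were at 0.11 and -0.03 and did not pass the test. In the list of teneurins and latrophilins, *Tenm4* on chromosome 7 rose by 0.89, from 472 and 489 counts to 829 and 857, beside *Tenm3* on chromosome 8, and *Flrt2* fell by 0.73 on the log2 scale.

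Signaling genes of the pathway that *Wnt6* belongs to mostly fell or did not pass the test. Of 20 tested Wnt ligands and secretion genes, 9 fell (45.0%, beside 13.2% of all genes) and 0 rose by adjusted p. None was past both thresholds, and the median was -0.39. The number that fell was 5 without heterozygous replicate 1 and 6 without heterozygous replicate 2 or homozygous replicate 2. *Wnt8a* was at 3.66 and 2.97 CPM in heterozygous and 1.75 and 1.57 in homozygous libraries (1.99-fold lower, just under the fold threshold, edgeR adjusted p = 0.00114). *Rspo1*, which amplifies Wnt signals, was at 10.4 and 9.81 CPM against 5.32 and 6.18 (log2 fold change -0.81, standard error 0.115, edgeR adjusted p = 3.47e-05). *Wnt5a*, a ligand of the noncanonical branch, fell by 0.60 and *Wnt3* by 0.47 on the log2 scale. The list's median log2(CPM + 0.5), relative to the heterozygous mean, was -0.25 and -0.16 in wild-type libraries. In homozygous libraries it was -0.29 and -0.39, so wild-type lay between the deletion genotypes. Among 30 receptors and transducers 8 fell and 4 rose, or 12 and 1 with library totals and 4 and 1 without heterozygous replicate 1. *Ctnnb1*, which encodes beta-catenin, and *Tcf7l1* did not pass the test (0.02 and 0.04), *Ror1* fell by 0.77 and *Tcf7l2* by 0.43 on the log2 scale. The stem cell receptor *Lgr5*, with 21 and 16 against 7 and 8 counts, passed both thresholds, but not with DESeq2 or with any single library left out. Among 18 targets and inhibitors 6 fell, or 2 without homozygous replicate 2, and 2 rose. The feedback target *Axin2* was at 17.7 and 16.9 CPM against 14.5 and 12.1 (log2 fold change -0.39, standard error 0.093, edgeR adjusted p = 0.00491), and *Sp5* did not pass the test. The secreted inhibitors *Notum* and *Sfrp1*, the latter on chromosome 8, rose by 0.71 and 0.60.

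The FGF and BMP pathways had members in both directions. Of 19 FGF to ERK genes (26.3% fell and 15.8% rose, beside 13.2% and 13.1% of all genes) 5 fell, or 8 with library totals, *Dusp6* and *Spry4* by 0.22 and 0.23 on the log2 scale, and 3 rose, *Fgf4* by 0.24, *Etv5* by 0.27 and *Fgfr1* on chromosome 8 by 0.40. Of 20 BMP and Id genes 7 fell (35.0%), fewer without heterozygous replicate 1, and 1 rose (median -0.19). The 1 that rose, *Smad1*, is on chromosome 8. *Id1*, *Id2* and *Id3*, the direct BMP targets, did not pass the test.

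Polycomb genes differed by small amounts. Of 35 tested, 9 rose (25.7%, beside 13.1% of all genes) and 5 fell (14.3%, beside 13.2%) by adjusted p, with a median of 0.05. With library totals 4 rose and 7 fell, and the median turned to -0.01. Without homozygous replicate 1 the numbers were 4 and 3, and without heterozygous replicate 1 they were 5 and 2. *Ezh2*, the PRC2 methyltransferase, and *Suz12* did not pass the test (0.10 and 0.06), and *Eed* and *Rnf2* rose by 0.17 and 0.14. *Kdm2b*, which recruits Polycomb to CG-dense promoters, was at 85.7 and 84.2 CPM against 118 and 117 (log2 fold change 0.47, standard error 0.047, edgeR adjusted p = 3.87e-07), and *Jarid2* rose by 0.28. Of 23 tested *Hox* genes, classical Polycomb targets, 2 fell (8.70%, beside 13.2% of all genes) and 0 rose (median -0.24). *Hoxb9* went from 59 and 67 to 33 and 29 counts and *Hoxa11* from 24 and 33 to 13 and 12. *Hoxa11* was not called with DESeq2 or without either heterozygous library or homozygous replicate 2. Of the 17 tested CTCF and cohesin genes 8 rose and 0 fell, or 6 and 1 with library totals, and 5 rose without heterozygous replicate 1 or homozygous replicate 1. *Rad21*, a cohesin subunit, rose by 0.20, and *Smc1a* and *Smc3* did not pass the test.

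Genes of amino acid supply were among those that rose. Of 28 tested ATF4 and amino acid response genes 16 rose and 0 fell by adjusted p, with a median of 0.28, or 0.24 without the 2 on chromosome 8. With library totals 15 rose and 3 fell. *Psat1*, of serine synthesis, was at 328 and 337 CPM against 512 and 486 (log2 fold change 0.59, standard error 0.043, edgeR adjusted p = 7.74e-09). *Asns*, asparagine synthetase, was at 178 and 182 CPM against 248 and 233 (log2 fold change 0.42, standard error 0.045, edgeR adjusted p = 1.21e-06). The amino acid transporter *Slc7a5* and the alanyl-tRNA synthetase *Aars*, both on chromosome 8, rose by 0.80 and 0.89. The stress-linked members *Ddit3*, *Trib3* and *Chac1* did not pass the test, with log2 fold changes of -0.31, 0.17 and 0.02.

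Growth-related lists shifted by small amounts. Of 86 cytosolic ribosomal protein genes 41 rose and 2 fell, with a median of 0.12. This count rested on the scaling and on single libraries. With library totals 15 rose and 5 fell, and the number that rose was 18 without homozygous replicate 1, 60 without homozygous replicate 2 and 13 without heterozygous replicate 2. *Rpl13* on chromosome 8 rose by 0.71, and *Rpl3l*, past both thresholds from at most 29 counts, lost that call in 10 of the 18 alternatives. Of 80 oxidative phosphorylation genes 14 rose and 4 fell (17.5% and 5%, beside 13.1% and 13.2% of all genes). Of the 77 off chromosome 8, 11 rose and 4 fell. With single libraries left out, the median of the 80 ran from 0.006 (without homozygous replicate 1) to 0.097 (without homozygous replicate 2). With library totals 6 rose and 8 fell, and the median turned from 0.05 to -0.02. Of 24 replication and mitosis genes 11 rose and 1 fell (median 0.10), *Pcna* by 0.27 and *Mki67* by 0.19, and 5 rose without heterozygous replicate 1 and 7 without heterozygous replicate 2, and 5 with library totals. Among 32 glycolysis and hypoxia genes 13 fell and 3 rose (median -0.11), or 15 and 1 with library totals, *Slc2a1* by 0.20 on the log2 scale, 6 fell without heterozygous replicate 1 and 8 without heterozygous replicate 2, and *Ldha* did not pass the test. Among 26 p53 targets 13 fell and 1 rose (median -0.13). *Cdkn1a*, the p21 cell cycle inhibitor, was at 81.4 and 82.2 CPM against 64.7 and 63.9 (log2 fold change -0.35, standard error 0.05, edgeR adjusted p = 3.49e-05), *Mdm2* and *Ccng1* fell by 0.29 each and *Trp53inp1* by 0.46 on the log2 scale. The only one that rose, *Ckap2*, is on chromosome 8. Relative to the heterozygous mean, the median log2(CPM + 0.5) of the p53 targets was -0.10 and -0.09 in wild-type libraries. It was -0.13 and -0.15 in homozygous libraries, so wild-type was closer to the homozygous than to the heterozygous libraries.

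Immediate early genes had 7 of 19 members fall and 3 rise (36.8% and 15.8%, beside 13.2% and 13.1% of all genes). *Egr1* was lower by 0.32 on the log2 scale, and *Fos* and *Jun* did not pass the test. The 3 that rose are all on chromosome 8, among them *Ier2*, higher by 0.76. Of the 16 off chromosome 8, 7 fell and 0 rose. Of 31 cholesterol synthesis genes 5 rose and 4 fell (16.1% and 12.9%), which is near the 13.1% and 13.2% of all genes. With library totals 4 rose and 11 fell, and the median went from -0.01 to -0.07. Of 17 heat shock genes 4 rose and 3 fell (23.5% and 17.6%), or 3 and 5 with library totals. Fewer rose without heterozygous replicate 1, and *Hspa1a* and *Hspa1b* did not pass the test.

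Of 25 tested germline genes that DNA methylation silences in somatic cells, 9 rose and 1 fell by adjusted p, with a median of 0.34. With library totals 8 rose and 2 fell. *Piwil2*, of the piRNA pathway, was at 11.7 and 12.9 CPM against 19.9 and 20.2 (log2 fold change 0.70, standard error 0.088, edgeR adjusted p = 7.46e-06), and *Ddx4* rose by 0.36. *Dazl* and *Sycp3* did not pass the test. Genes of the rare two-cell-like state had few reads, and 5 of 33 were tested. *Zscan4a* had 5 and 3 counts in heterozygous and 13 and 11 in homozygous libraries, and *Zscan4c* had 5 and 4 against 10 and 11. *Zscan4a* passed both thresholds (log2 fold change 1.63, edgeR adjusted p = 0.038) but not with DESeq2 or without either heterozygous library or homozygous replicate 1, and *Zscan4c* did not pass (edgeR adjusted p = 0.0927). *Zscan4a* is annotated as a pseudogene, and the Zscan4 genes are near-identical copies of each other, so reads could be split among them. *Usp17le*, of a multicopy family seen in the same state, had 6 and 2 against 14 and 18 counts and lost its call past both thresholds with DESeq2 and without heterozygous replicate 2.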

How the data were processed

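RNA-seq of the 4 deletion libraries, with the 2 wild-type libraries of the series, was used; groups came from the sample labels. Raw gene counts for 55385 genes, from polyA RNA and a stranded library kit, were deposited by the authors. The submitters' processing notes name Trimmomatic 0.39, STAR 2.6.1d, SAMtools 1.9, featureCounts 1.6.4 and DESeq2 1.22.2, with the build GRCm38 (mm10). The strand setting of the counting is not given in the sources used here, so reads of overlapping genes cannot be told apart.

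Counts were fitted with edgeR 4.0.16 (glmQLFit, glmQLFTest, TMM) in R 4.3.3 with limma 3.58.1, using all 6 libraries in a model of 3 genotypes, after a minimum of 10 counts in 2 of the 4 deletion libraries. Standard errors came from the fold change and its F statistic. CPM used effective library sizes. Summaries used Python 3.11.15, pandas 2.3.3, numpy 2.4.6, scipy 1.17.1 and matplotlib 3.10.9. Gene positions came from GENCODE M21, where 55144 identifiers were found, and promoters from RefSeq (GRCm38.p6). In data simulated for this contrast, 180 of 196 changed genes that were tested were recovered (91.8%), with 2 false calls among 16233 genes. All planted changes exceeded the fold threshold, counts were drawn with the fitted spread, and only calls past both thresholds were scored. The simulation therefore does not cover the smaller changes called by adjusted p alone.

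A genotype at 0 counts gave a bound from 3 counts over its 2 libraries, and at 1 to 3 counts a ratio with an exact 95% interval; both cover counting error only. Replicates differed by more than sampling noise (chi-square per degree of freedom 2.46 for heterozygous and 3.66 for homozygous libraries). Gene lists were described by counts and medians, with no set test. The members and lists were chosen with earlier results of these data known. Genes named were the 10 highest and 10 lowest fold changes past both thresholds with at least 30 counts on average in the higher genotype and no overlap between genotypes, in each list up to 6 members past both thresholds or, with fewer than 2 past them, the 3 with the lowest adjusted p, the members that define a list, the deleted genes and *Pax3*, and 6 genes of chromosome 8 with the lowest adjusted p; 3 more were named after their values were seen. Some genes that these rules name are not reported here. The 18 alternatives were DESeq2 1.42.0 on 4 or 6 libraries, other scalings and count minimums, only the 4 libraries in the fit, a replicate block, robust estimation, thinning and each library left out.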

Additional observations from a re-analysis of the deposited data

How the results depend on the processing

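Past both thresholds, higher and lower genes numbered 86 and 141. DESeq2 gave 37 and 47 on 4 libraries and 46 and 55 on 6, and a minimum of 30 counts 39 and 64. With each library left out they ran from 68 to 98 and from 97 to 300. By adjusted p alone, 2166 and 2180 became 1319 and 834 with DESeq2 on 4 libraries, 1547 and 1070 on 6, and 1390 and 3339 with library totals; with each library left out they ran from 1456 to 2168 and from 1402 to 2185. The cause was not tested. The chromosome 8 median was 0.51, and 0.53 and 0.52 with DESeq2 on 4 and 6 libraries, 0.52 with its size factors, 0.45 with library totals, 0.53 with TMM without chromosome 8, and 0.48 to 0.53 with a library left out. With library totals the medians were 0.11 for pluripotency, -0.61 for fibroblast and 0.055 for ribosomal protein genes; the fibroblast median was -0.53 with TMM without chromosome 8. With each library left out these ran from 0.153 to 0.234, from -0.562 to -0.506 and from 0.076 to 0.171. The replicate number as a block gave 79 and 135 genes past both thresholds, and 2038 and 2107 by adjusted p. Same-numbered libraries did not deviate together (correlation 0.02), with 2 pairs only. Of 267 tested named genes, 199 kept their side of the adjusted p threshold in every alternative and none with a call changed sign; of 46 past both thresholds, 27 stayed so throughout. Depth limits genes of few counts most.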
